A study of Mus musculus with 28 samples.

Results

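The comparison set 3 libraries of APOE3 primary microglia given amyloid against 3 libraries of untreated APOE3 primary microglia, 6 of the 28 libraries of the study, and covered every gene with enough counts. Members were taken by label: genotype APOE3 (written WT in the labels), treatment amyloid or control, and a title ending in SAN. The other genotype in the study is the homozygous Christchurch variant, APOE3S/S, and other cells were given tau. The labels do not name the amyloid species, its dose or the time of exposure, and "untreated" stands here for a label that reads Control and does not say whether a vehicle was added. Every library is labelled primary microglia, and the labels give neither the sex nor the age of the mice. RNA was read as 3′ tags, so a gene's count comes from the end of its transcripts.

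Microglia are the resident macrophages of the brain and take up amyloid through scavenger, Toll-like and TREM2-linked receptors. Type I interferon, made after nucleic acids or microbial patterns are sensed, acts through transcription factors that include STAT2 and IRF9 on genes whose promoters carry an interferon-stimulated response element, and IRF7 feeds back on interferon production. In brain tissue with amyloid plaques, microglia are also known for a disease-associated state in which lipid, lysosomal and TREM2-linked genes are high, and for an interferon-responsive state.

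The 6 libraries held 14.7 to 18.7 M counts (M for 1e6), and levels are given as counts per M counts of the library (CPM). Microglial markers summed to 11820 to 12580 CPM with amyloid and to 10650 to 12080 CPM without it, and 1 of the 17 defining markers, Siglech, was at 0 in all 6. Astrocyte markers summed to 72.7 to 118 CPM with amyloid and 46.8 to 62.2 CPM in untreated cells. Oligodendrocyte lineage markers summed to 229.7 to 236.6 CPM with amyloid and 191.0 to 220.7 CPM in untreated cells. Fibroblast and mural markers summed to 1953 to 2174 CPM with amyloid and 1033 to 1856 CPM in untreated cells, and without Fn1, a matrix gene that is also in the border macrophage list, to 9.72 to 74.3 CPM with amyloid and 7.85 to 24.5 CPM in untreated cells. These 3 sums, with Fn1 counted, were higher in every amyloid library than in any untreated one, and their part in the results was not tested. Neuron and endothelial sums overlapped between the groups, and 9 of the 14 granulocyte and lymphocyte markers were at 0. Amyloid library 2 held the most Gfap, an astrocyte filament gene, at 8.30 CPM, against 0.883 and 0.965 CPM in the other amyloid libraries and 2.04 to 3.42 CPM in untreated ones. It also held the most Col3a1, a fibroblast collagen, at 20.6 CPM, against 3.92 and 0.386 CPM in the other amyloid libraries and 0.625 to 2.31 CPM in untreated ones. In bulk RNA, fewer cells of a type and less RNA per cell cannot be told apart. Nothing in the labels states that replicates came from different cultures or mice, so the p-values reflect variation among these libraries, in part perhaps technical. An exact permutation test of 3 libraries against 3 cannot give a p below 0.1, so tests were fitted across all genes.

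How many genes passed depended on which other libraries entered the fit. In edgeR's quasi-likelihood fit of 11 libraries, the 6 above with the APOE3S/S amyloid and untreated libraries of the same title series, 0 of 13867 genes passed an adjusted p of 0.05 (0.0%), the lowest being 0.21. At an unadjusted p under 0.05 there were 1142 higher (8.24%) and 680 lower genes (4.9%, 13.1% together), DESeq2 called 228 higher and 61 lower, and limma-voom called 0. The 2 APOE3S/S untreated libraries differed: library 2 had 246 CPM of Isg15 and 1220 CPM of Irf7, against 27.6 and 197 CPM in library 1. Without library 2 the same fit called 292 higher genes (2.0%) and 29 lower (0.199%, 2.2% together). This contrast was not fitted without library 1 alone. The 6 APOE3 libraries fitted alone gave 470 higher (3.63%) and 105 lower genes (0.81%) of 12962 tested, 4.44% together. All 17 libraries of the title series gave 99 higher (0.701%) and 19 lower genes (0.134%, 0.835% together), and the 9 APOE3 libraries among them gave 689 higher (5.14%) and 243 lower genes (1.81%, 6.96% together). The typical variation between replicates, as the biological coefficient of variation, was 14.1% in the 6-library fit, 16.0% in the 10-library fit and 17.6% in the 11-library fit. Leaving out APOE3S/S untreated library 1 in place of library 2 also gave 16.0%. These values pool the groups, which spread unequally. Squared differences between 2 libraries were 4.22 to 7.93 times the counting variance among amyloid libraries and 25.3 to 52.0 times among untreated ones. The fits take 1 spread per gene for all groups.

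**Figure D1:**
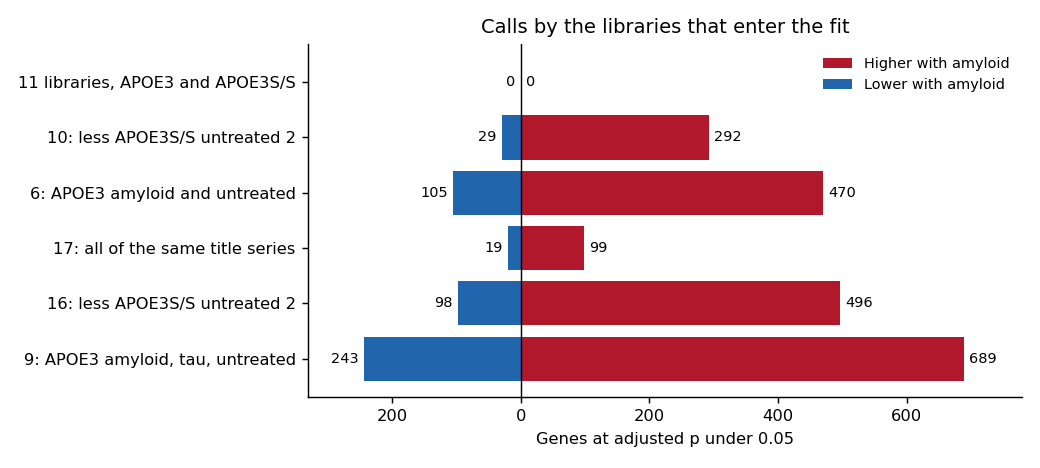
Bars give the number of genes at an adjusted p under 0.05 (x axis) in amyloid against untreated APOE3 microglia, higher to the right in red and lower to the left in blue, for 6 choices of libraries (y axis). The 11-library fit gave 0 in both directions, and every fit without APOE3S/S untreated library 2 gave at least 292 higher genes. No fit shown left out APOE3S/S untreated library 1 alone.

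All log2 fold changes below are of amyloid over untreated, each ± its standard error, from the 6-library fit with 3 libraries a group, and "rose" and "fell" are used only for genes past an adjusted p of 0.05 in that fit. None of them passed in the 11-library fit. Both fits take this contrast from the same 6 libraries and differ in the spread they estimate, so that the fold changes have the same sign follows from the fits, and 542 of the 575 had an unadjusted p under 0.05 in the 11-library fit. In CPM, all 3 amyloid libraries lay on 1 side of all 3 untreated libraries for each of the 575. Of all 13867 genes, 13.4% were higher in this way and 10.9% were lower. Of the 575, 316 were also called in the 10-library fit, and 207 (191 higher, 16 lower) were called whichever of the 6 libraries was left out. The rise was larger than 2-fold for 226 genes and the fall for 22. Most were protein-coding, 433 of those higher and 99 of those lower.

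**Figure D2:**
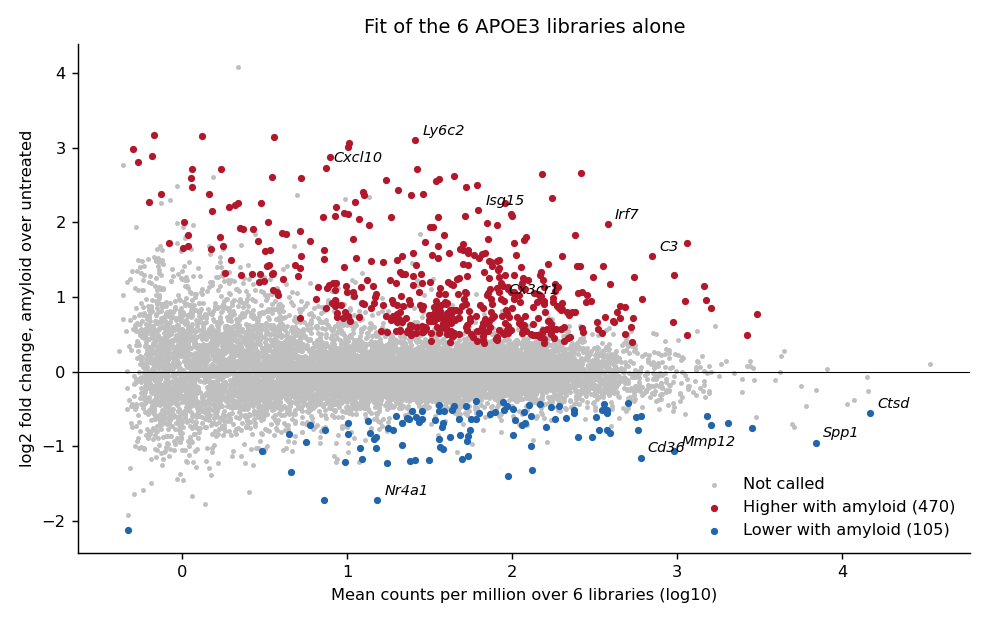
Each point is 1 of the 12962 genes tested in the 6-library fit, with its mean level over the 6 libraries as log10 CPM (x axis) and its log2 fold change, amyloid over untreated (y axis). The 470 higher genes in red include Ly6c2 (log2 fold change 3.10), and the 105 lower genes in blue include Spp1 (-0.95) and Ctsd (-0.55).

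Interferon-stimulated genes made up the list with the most calls among 32 functional lists. Of 55 tested members of the list, 53 rose and 0 fell, against 3.63% of all genes higher. The median log2 fold change was 1.55, against -0.02 over all genes. The remaining members, Ifi207 and Irf9, had log2 fold changes of 0.49 and 0.38 with adjusted p-values of 0.084 and 0.061. In the 10-library fit 52 of the 55 were called higher, in the fit of 17 libraries 31, and in the 11-library fit 0, where all 55 had an unadjusted p under 0.05. Of the 53, 48 were called whichever of the 6 libraries was left out. The mean log2 level of the list (CPM plus 1) was 7.00, 7.09 and 7.00 in amyloid libraries and 5.18, 5.62 and 5.45 in untreated libraries. The groups did not overlap, and the untreated libraries spread more widely than the amyloid ones.

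Regulators of the response were among them. Irf7, the transcription factor that amplifies interferon production, measured 598, 670 and 544 CPM in amyloid libraries and 127, 160 and 170 CPM in untreated libraries. Every amyloid library was above every untreated one, and the log2 fold change was 1.97 ± 0.13 (adjusted p = 0.00019). Stat2, a transcription factor that the type I interferon receptor activates, rose by a log2 fold change of 1.42 ± 0.14 (adjusted p = 0.00083), whereas Irf9, which binds DNA together with Stat2, measured 109, 108 and 108 CPM with amyloid and 71.7, 85.6 and 89.3 CPM without and missed the threshold. Ifnb1, the gene of interferon beta, had 12 counts over the 3 amyloid libraries (4, 7 and 1) and 0 over the 3 untreated ones. With the untreated sum set to 3 counts and the amyloid sum as observed, it was 3.63-fold higher. It was too sparse for the 6-library fit, and this value leaves out counting error in the amyloid sum and variation between libraries.

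Effectors with direct antiviral action rose as well. Isg15, a ubiquitin-like modifier, measured 101, 109 and 95.4 CPM in amyloid libraries and 22.2, 26.0 and 19.2 CPM in untreated libraries, with a log2 fold change of 2.16 ± 0.13 (adjusted p = 0.00015). Ifit3, which helps to hold foreign RNA, measured 262, 280 and 237 CPM with amyloid and 35.2, 55.1 and 33.1 CPM without, a log2 fold change of 2.64 ± 0.19 (adjusted p = 0.00021). Both genes were high in all 3 amyloid libraries, with no overlap. Its near copy Ifit3b, between which and Ifit3 reads could be split by the counting, rose by a similar log2 value, 2.71 ± 0.20 (adjusted p = 0.00021). Mx1, a dynamin-like GTPase that blocks viruses, measured 94.6, 110 and 107 CPM with amyloid and 14.4, 25.7 and 14.5 CPM without (log2 fold change 2.50 ± 0.21). Oasl2, of the family of oligoadenylate synthetases, measured 366, 404 and 364 CPM with amyloid and 85.0, 109 and 121 CPM without, a log2 fold change of 1.83 ± 0.13 (adjusted p = 0.00020). All of these separated the groups in every library.

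The 12 highest called changes at a mean of at least 5 CPM were Ly6c2, Gbp4, Gm6545, Trim30c, Cxcl10, Ifit3b, Ifit2, Ifit3, Ly6i, BC147527, Ifi213 and Oasl1, with log2 fold changes of 2.57 to 3.10. All 12 were called whichever of the 6 libraries was left out. Ly6c2, a surface antigen that marks inflammatory monocytes and that interferon also raises, measured 47.8, 54.6 and 36.0 CPM with amyloid and 2.96, 5.02 and 8.23 CPM without, a log2 fold change of 3.10 ± 0.29 (adjusted p = 0.00058). It was the 1 called member of 12 tested border macrophage and monocyte markers, whose sum was 3720 to 3951 CPM with amyloid and 2453 to 3685 CPM without, with Cd209f at 0. Leaving out Fn1, that sum was 1786 to 1846 CPM with amyloid and 1444 to 1841 CPM in untreated cells, an overlap. The part of such cells in the change of Ly6c2 was not tested. Gbp4, a GTPase of the guanylate-binding family, measured 16.0, 19.9 and 18.8 CPM with amyloid and 1.88, 2.24 and 2.37 CPM without (log2 fold change 3.06 ± 0.16, adjusted p = 9.8e-05). Cxcl10, a chemokine that attracts T cells, measured 12.3, 11.8 and 14.9 CPM with amyloid and 1.42, 1.56 and 2.83 CPM without (log2 fold change 2.73 ± 0.24, adjusted p = 0.00045). Both separated the groups without overlap. Ly6c2 with Ly6i, Trim30c, the Gbp genes and Ifi213 belong to families of close copies, so the split of reads among their members is uncertain, and Gm6545 is annotated as a processed pseudogene.

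**Figure D3:**
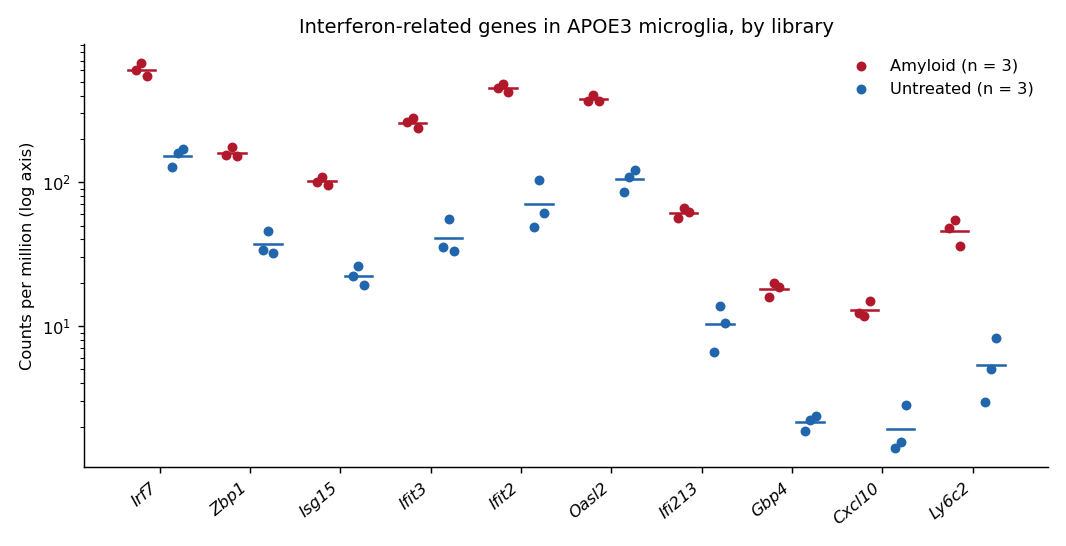
Points give the CPM (log y axis) of 10 genes (x axis) in each library, 3 amyloid in red on the left and 3 untreated in blue on the right, and lines give group means. In each of the 10 genes all amyloid points lie above all untreated points, for example 95.4 to 109 CPM against 19.2 to 26.0 CPM in Isg15.

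The 250 bases before the start of 4 genes named above are shown, chosen because they hold the letters of the interferon-stimulated response element. Of the 12 highest called genes 9 had a promoter entry. Of these 9, 5 held a match, and Ly6c2, Trim30c, Ifit2 and Oasl1 held none. Of 72 named called genes with a promoter searched, 12 held a match. The sequences are from RefSeq on build GRCm38.p6, each 5′ to 3′ on the gene's strand, and capitals mark every match to GAAA, any 2 bases, GAAA on either strand, a match on the opposite strand reading as its reverse complement. Isg15 lies at chr4:156200819-156201068 on the minus strand and has 3 matches that overlap each other, starting 78, 72 and 66 bases before the gene's start.
Isg15: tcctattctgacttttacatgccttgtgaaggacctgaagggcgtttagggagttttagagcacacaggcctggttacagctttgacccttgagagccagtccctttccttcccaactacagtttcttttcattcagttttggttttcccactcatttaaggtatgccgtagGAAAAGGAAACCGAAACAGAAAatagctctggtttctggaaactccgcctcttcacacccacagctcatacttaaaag
Ifit3 lies at chr19:34583279-34583528 on the plus strand and has 2 separate matches, both on the opposite strand.
Ifit3: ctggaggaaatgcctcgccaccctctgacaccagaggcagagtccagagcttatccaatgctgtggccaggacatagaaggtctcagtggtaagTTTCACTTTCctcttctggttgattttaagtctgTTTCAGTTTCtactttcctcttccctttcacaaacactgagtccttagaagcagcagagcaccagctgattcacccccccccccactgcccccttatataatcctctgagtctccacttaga
Ifi213, a member of the family of cytosolic DNA-binding proteins, lies at chr1:173599273-173599522 on the minus strand with 1 match.
Ifi213: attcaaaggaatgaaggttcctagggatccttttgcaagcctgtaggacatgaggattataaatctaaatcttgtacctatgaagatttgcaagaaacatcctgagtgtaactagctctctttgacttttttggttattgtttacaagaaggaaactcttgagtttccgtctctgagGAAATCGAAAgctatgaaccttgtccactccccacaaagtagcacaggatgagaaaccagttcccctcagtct
Cxcl10 lies at chr5:92348890-92349139 on the minus strand with 1 match, farther from the start.
Cxcl10: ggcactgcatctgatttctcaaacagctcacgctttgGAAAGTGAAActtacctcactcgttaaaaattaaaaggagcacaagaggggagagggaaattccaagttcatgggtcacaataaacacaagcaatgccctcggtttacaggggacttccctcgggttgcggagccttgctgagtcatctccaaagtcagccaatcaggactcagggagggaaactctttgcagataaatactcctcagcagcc

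This pattern, searched on both strands, was present in 2.98% of 32851 RefSeq promoters of this length, in 70 of the 367 higher genes with an entry (19.1%) and in 5 of the 78 lower genes with an entry (6.41%). Among the 9521 tested genes with an entry the share was 3.51%. The 250-base window of Irf7 held no match, which says only that these letters are not in this window. A gene was counted when any of its promoter entries held a match. The letters of an NF-kB site, GGGA, any 4 bases and CC, were found for 30.0% of higher, 26.9% of lower and 26.0% of tested genes with an entry. Those of an AP-1 site, TGANTCA, were found for 10.6% of higher, 12.8% of lower and 5.52% of tested genes with an entry. A match is a description of the sequence and not a bound site.

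Genes of nucleic acid sensing rose in part. In the cGAS-STING list, 7 of 19 tested members rose and 1 fell (Enpp1, which degrades the messenger cGAMP, log2 fold change -0.51 ± 0.10), with a median of 0.25. In the 10-library fit 6 were called higher and 0 lower. Over all genes tested in the 6-library fit, 3.63% rose and 0.81% fell. Zbp1, a sensor of left-handed nucleic acids, measured 154, 175 and 152 CPM with amyloid and 34.0, 45.8 and 32.3 CPM without (log2 fold change 2.09 ± 0.15, adjusted p = 0.00020). Mb21d1, the gene of cGAS, measured 23.5, 23.1 and 24.1 CPM with amyloid and 10.2, 16.6 and 15.5 CPM without, a log2 fold change of 0.73 ± 0.16 (adjusted p = 0.036, and 0.12, 0.14 and 0.15 without amyloid library 1, 2 or 3). Tmem173, the gene of STING, had 62.1, 68.4 and 64.4 CPM with amyloid and 48.3, 51.9 and 39.7 CPM without, with an adjusted p of 0.083. Zbp1, Irf7 and Ifi204 are shared with the interferon list. Of 24 tested Toll-like receptor genes 4 rose and 0 fell, and the 10-library fit also called 4. Tlr3, which senses double-stranded RNA, rose by a log2 fold change of 0.87 ± 0.10 (adjusted p = 0.0014), and Tlr9, which senses DNA, by 1.21 ± 0.22 (adjusted p = 0.017). Tlr9 lost its call without amyloid library 1, 2 or 3 or untreated library 2, at adjusted p-values of 0.055 to 0.075, and Enpp1 without the same libraries, at 0.063 to 0.16.

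The list of amyloid receptors and co-receptors, not all of which bind amyloid themselves, gave calls in both directions. Of 24 tested, 4 rose (Tlr2, Fpr2, Marco and Pilra) and 1 fell (Cd36), with a median of 0.13, and the 10-library fit called 3 higher and 1 lower. Over all genes 3.63% rose and 0.81% fell. Tlr2, a Toll-like receptor for lipoproteins and fibrils, measured 506, 494 and 502 CPM with amyloid and 296, 318 and 318 CPM without, a log2 fold change of 0.67 ± 0.09 (adjusted p = 0.0029). Marco, a scavenger receptor, measured 1256, 1447 and 1366 CPM with amyloid and 584, 689 and 366 CPM without (log2 fold change 1.29 ± 0.21, adjusted p = 0.011). Cd36, a scavenger receptor for fatty acids, oxidised lipid and amyloid, measured 440, 336 and 351 CPM with amyloid and 889, 801 and 778 CPM without, with a log2 fold change of -1.15 ± 0.14 (adjusted p = 0.0017). None of these overlapped between groups. Marco reached an adjusted p of 0.052 without amyloid library 2, and Pilra one of 0.072 without untreated library 1 and of 0.10 to 0.17 without any 1 amyloid library. Trem2, the receptor upstream of the disease-associated state, measured 828, 745 and 772 CPM with amyloid and 1278, 1035 and 1024 CPM without and missed the threshold (log2 fold change -0.53 ± 0.13, adjusted p = 0.058). Tlr4 measured 156, 170 and 154 CPM against 104, 175 and 134 CPM, an overlap of the groups (adjusted p = 0.54). Of 12 tested enzymes that can degrade amyloid beta 0 rose and 1 fell, Ctsd, which the 10-library fit did not call.

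Disease-associated and lysosomal genes gave more falls than rises. Of 32 tested disease-associated genes 1 rose and 4 fell (3.63% of all genes rose and 0.81% fell), with a median of -0.19. Of 36 lysosome and phagocytosis genes 1 rose and 6 fell, with a median of -0.19. None of these 12 calls, Ctsd and Ctsl counted under both lists, was made in the 10-library fit, and none was called whichever of the 6 libraries was left out. Spp1, the secreted matrix protein osteopontin, measured 5722, 4231 and 4251 CPM with amyloid and 10770, 7596 and 8639 CPM without (log2 fold change -0.95 ± 0.18, adjusted p = 0.020). Ctsd, a lysosomal aspartic protease, measured 12260, 11840 and 12140 CPM with amyloid and 19910, 15780 and 16720 CPM without (log2 fold change -0.55 ± 0.13, adjusted p = 0.050). Lgals3, a lectin recruited to damaged lysosomes, measured 2429, 1958 and 2027 CPM with amyloid and 4324, 3297 and 3013 CPM without (log2 fold change -0.75 ± 0.17, adjusted p = 0.042). Each was lower in all 3 amyloid libraries. Cst7, a cysteine protease inhibitor, was the member that rose, with 5.63, 6.05 and 5.60 CPM with amyloid and 2.27, 1.97 and 2.96 CPM without (log2 fold change 1.24 ± 0.21, adjusted p = 0.011). Without amyloid library 2 the adjusted p was 0.13 for Spp1, 0.29 for Ctsd, 0.23 for Lgals3 and 0.066 for Cst7, and without amyloid library 3 it was 0.12, 0.25, 0.21 and 0.053 in the same order. Without amyloid library 1 it was 0.14 for Ctsd, 0.070 for Lgals3 and 0.051 for Cst7, and without untreated library 2 it was 0.072 for Lgals3. Lpl, Itgax, Clec7a and Apoe, also of this list, missed the threshold, and the mouse gene Apoe measured 15.2, 14.2 and 16.7 CPM with amyloid and 14.7, 15.4 and 20.0 CPM without, which says nothing of the genotype.

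Homeostatic genes showed rises. Of 22 tested, 4 rose and 0 fell, with a median of 0.13, and 3 were called in the 10-library fit. Over all genes 3.63% rose and 0.81% fell. Cx3cr1, the receptor for neuronal fractalkine, measured 116, 102 and 122 CPM with amyloid and 50.1, 49.3 and 72.4 CPM without, a log2 fold change of 0.97 ± 0.15 (adjusted p = 0.0063). It had the smallest unadjusted p of all higher genes at 5 CPM or more in the 11-library fit, 2.8e-05. P2ry12, a purine receptor of process movement, measured 24.9, 24.5 and 24.6 CPM with amyloid and 10.2, 14.9 and 12.4 CPM without, a log2 fold change of 0.96 ± 0.14 (adjusted p = 0.0042). Both were high in all amyloid libraries. P2ry13 and Csf1r, the receptor for CSF1 on which microglia depend, rose by log2 fold changes of 0.93 ± 0.17 and 0.50 ± 0.10. These 2 lost their calls without amyloid library 1, 2 or 3, P2ry13 at adjusted p-values of 0.054 to 0.076 and Csf1r at 0.099 to 0.19. Tmem119, near 2 CPM, measured 2.98, 2.03 and 1.67 CPM with amyloid and 0.909, 1.22 and 2.24 CPM without, an overlap.

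Complement, antigen presentation and lectin receptors rose in part. Of 18 complement genes 5 rose and 0 fell, of 23 MHC class I and immunoproteasome genes 8 rose and 0 fell, and of 20 Siglec and C-type lectin receptors 6 rose and 0 fell. Their medians were 0.14, 0.48 and 0.34, against -0.02 over all genes, of which 3.63% rose. The 10-library fit called 3, 6 and 2 of these lists higher, in the same order. C3, the central complement component, measured 1034, 1111 and 1020 CPM with amyloid and 262, 379 and 433 CPM without (log2 fold change 1.55 ± 0.16, adjusted p = 0.00077). Tapbp, which loads peptides on class I molecules, measured 785, 863 and 791 CPM with amyloid and 417, 433 and 381 CPM without (log2 fold change 0.97 ± 0.11, adjusted p = 0.0012). Neither overlapped between groups. Siglec1, a sialic acid receptor, measured 1866, 2120 and 2031 CPM with amyloid and 526, 1042 and 1134 CPM without, a log2 fold change of 1.15 ± 0.23 (adjusted p = 0.025), with untreated library 1 lowest. Its adjusted p was 0.069, 0.11 and 0.098 without amyloid library 1, 2 or 3, and 0.051 without untreated library 2. Class II and co-stimulatory genes had 2 rises of 10, Icosl and Cd40, with 1 call in the 10-library fit, and Cd40 reached an adjusted p of 0.088 without amyloid library 2 and of 0.062 without amyloid library 3.

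Inflammatory genes rose in part. Of 31 inflammatory cytokine and NF-kB target genes 10 rose and 0 fell, with a median of 0.48, but the 10-library fit called 0. Over all genes 3.63% rose and 0.81% fell. Sod2, a mitochondrial antioxidant enzyme, rose by a log2 fold change of 0.85 ± 0.09 (adjusted p = 0.0012), and Icam1, an adhesion molecule, by 1.10 ± 0.15 (adjusted p = 0.0031). Relb and Nfkb2, subunits of the alternative NF-kB pathway, both rose by 0.54 ± 0.09, with adjusted p-values of 0.061 to 0.082 without amyloid library 1, 2 or 3. The classical cytokines did not pass. Il1b measured 33.1, 40.9 and 23.4 CPM with amyloid and 16.4, 21.3 and 23.4 CPM without (log2 fold change 0.66 ± 0.20, adjusted p = 0.11). Tnf measured 29.8, 21.1 and 26.7 CPM with amyloid and 14.4, 12.3 and 23.4 CPM without (adjusted p = 0.19). For both the groups overlapped or met. Il6 was at 0.166 to 0.214 CPM with amyloid and 0.0568 to 0.271 CPM without, too low for the 6-library fit. Of 19 chemokines 5 rose (Cxcl10, Ccl12, Cxcl9, Cxcl16 and Ccl7) and 0 fell, and the 10-library fit called 2. Without any 1 amyloid library the last 3 of these lost their calls (adjusted p 0.069 to 0.21), as they did without untreated library 1 (0.077 to 0.11), and Cxcl16 and Ccl7 also without untreated library 2 (0.073 and 0.13). Of 17 inflammasome genes 3 rose, Gsdmd, Nlrc4 and Nlrp3, of which Nlrp3, the sensor, measured 64.6, 62.4 and 64.4 CPM with amyloid and 35.1, 51.3 and 42.3 CPM without (log2 fold change 0.56 ± 0.13, adjusted p = 0.043). Without any 1 amyloid library the adjusted p of Nlrp3 was 0.15 to 0.18, and without untreated library 3 it was 0.051. Gsdmd lost its call without any 1 amyloid library (0.12 to 0.16), and Nlrc4 without any 1 amyloid library (0.13 to 0.19) and without untreated library 1 (0.066) or 3 (0.051). The 10-library fit called 1 inflammasome gene.

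**Figure D4:**
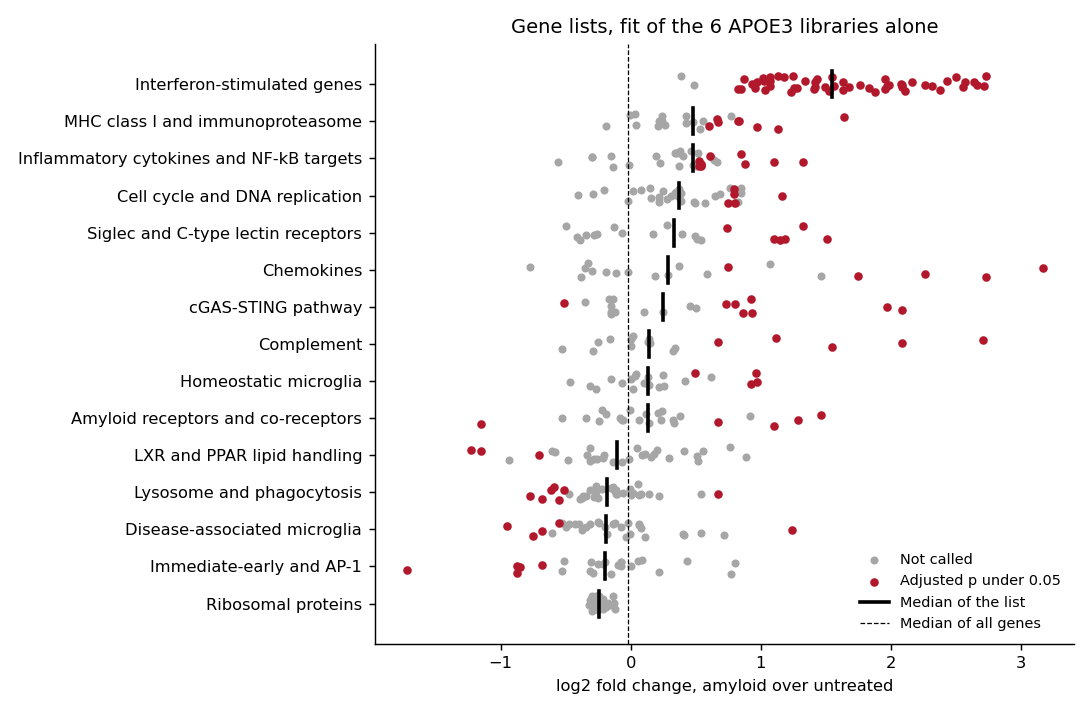
Each point is 1 tested gene of 15 lists (y axis), placed at its log2 fold change, amyloid over untreated (x axis), in the 6-library fit, red where the adjusted p is under 0.05; black bars are list medians and the dashed line is the median of all genes, -0.02. The interferon list sits at a median of 1.55, apart from the other lists, whose medians run from -0.24 to 0.48.

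Among the genes that fell, the 12 lowest called changes at a mean of at least 5 CPM were Nr4a1, Bex1, Rgs1, Emp1, Hilpda, Serpinb6b, Npy, Ifi27, Il7r, Gm14461, Mamdc2 and Cd36, with log2 fold changes of -1.72 to -1.15. Bex1, Serpinb6b, Npy and Mamdc2 lost their call without amyloid library 2, with adjusted p-values of 0.10, 0.059, 0.15 and 0.069, and without amyloid library 3, with 0.099, 0.054, 0.15 and 0.067. Bex1 also lost it without untreated library 2 (0.067) and Npy without untreated library 1 (0.073). Nr4a1, an immediate-early nuclear receptor, measured 7.67, 9.04 and 4.44 CPM with amyloid and 20.6, 21.4 and 27.6 CPM without (log2 fold change -1.72 ± 0.23, adjusted p = 0.0031). Rgs1, which dampens G protein signals, measured 67.7, 47.2 and 41.3 CPM with amyloid and 153, 101 and 154 CPM without (log2 fold change -1.40 ± 0.22, adjusted p = 0.0075). Ifi27, named for induction by interferon, measured 21.1, 17.5 and 19.2 CPM with amyloid and 49.3, 35.9 and 44.5 CPM without (log2 fold change -1.19 ± 0.15, adjusted p = 0.0020). All 3 genes were lower in every amyloid library than in any of these untreated ones.

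The study holds 3 more untreated APOE3 libraries, of another title series and in another table, whose CPM were set beside these after the data had been seen and without a test, since treatment and title series cannot be told apart there. Of the 470 higher genes 419 (89.1%) were higher in all 3 amyloid libraries than in any of these, against 32.6% of all genes tested, and of the 105 lower genes 76 (72.4%) were lower, against 17.0%. The called genes were selected with the same 3 amyloid libraries. A share above that of all genes is thus in part built in and is not a replication. The 12 highest changes were separated in this way, but of the 12 lowest 8 were. Nr4a1 measured 8.03, 5.62 and 3.82 CPM in these untreated libraries, within or below the range with amyloid. Npy measured 18.2, 13.1 and 12.9 CPM with amyloid and 10.3, 14.5 and 10.3 CPM in these untreated libraries. Bex1 measured 4.53, 2.41 and 3.28 CPM with amyloid and 2.07, 1.32 and 3.01 CPM in these, and Gm14461 6.62, 7.39 and 8.82 CPM with amyloid and 7.67, 8.94 and 7.89 CPM in these. For these 4 genes, then, the fall was not seen against the other untreated APOE3 libraries. Among the genes described above as rising, Cst7 measured 47.1, 54.5 and 43.8 CPM in these untreated libraries, above every amyloid library. The mean log2 level of the chemokine list was 4.53, 4.74 and 4.65 in them, above 3.95, 3.98 and 3.91 with amyloid. Cell cycle (4.14, 4.48 and 4.34 against 4.15, 4.41 and 4.44) and homeostatic levels (6.32, 6.44 and 6.37 against 6.47, 6.50 and 6.41) overlapped. Interferon, MHC class I, complement and inflammatory levels were lower in them than in any amyloid library. Of the lists with falls, disease-associated, immediate-early and matrix protease levels were higher in them than in any amyloid library. Lysosomal levels overlapped (9.39, 9.388 and 9.423 against 9.458, 9.382 and 9.427). LXR and PPAR lipid levels were 6.533, 6.538 and 6.521 in them, below 6.758, 6.763 and 6.795 with amyloid, opposite to the falls.

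Lipid and immediate-early genes held several of the falls. Over all genes 3.63% rose and 0.81% fell. Of 30 LXR and PPAR lipid genes 0 rose and 3 fell, Cd36, Hilpda and Plin2, with a median of -0.10, and the 10-library fit called 1. Hilpda, which holds back breakdown of stored lipid, measured 12.0, 11.8 and 7.72 CPM with amyloid and 28.8, 20.6 and 23.4 CPM without (log2 fold change -1.23 ± 0.20, adjusted p = 0.0098), and Plin2, which coats lipid droplets, fell by 0.71 on the log2 scale (adjusted p = 0.019, and 0.054, 0.14 and 0.13 without amyloid library 1, 2 or 3). Both droplet genes were lower in all 3 amyloid libraries. Of 25 immediate-early genes 0 rose and 5 fell, Nr4a1, Jun, Atf3, Dusp1 and Egr2, with a median of -0.20, and the 10-library fit called 3. Nr4a1 was called whichever library was left out, the next 3 lost their calls without amyloid library 2 or 3 (adjusted p 0.062 to 0.075), and Egr2 lost its call without any 1 library but untreated library 3 (0.072 to 0.18). Of 21 matrix proteases and inhibitors 0 rose and 3 fell, and the 10-library fit called 1. Mmp12, the macrophage elastase, measured 758, 547 and 577 CPM with amyloid and 1616, 1162 and 1091 CPM without (log2 fold change -1.06 ± 0.20, adjusted p = 0.017), with no overlap, and its adjusted p was 0.10 without amyloid library 2 and 0.099 without amyloid library 3.

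Cell cycle, arginine metabolism and Alzheimer risk genes also gave rises. Over all genes 3.63% rose and 0.81% fell. Of 35 cell cycle genes 5 rose and 0 fell, among them Mki67 and Top2a, with a median of 0.37, and the 10-library fit called 3. Both lost their calls without amyloid library 2 or 3 (adjusted p 0.15 to 0.20) or untreated library 1 (0.073 and 0.071), and Mki67 also without amyloid library 1 (0.064) or untreated library 3 (0.060). Of 16 alternative activation genes 5 rose and 1 fell, and the 10-library fit called 1 higher and 0 lower. Ass1, which makes argininosuccinate, rose by a log2 fold change of 1.71 ± 0.22, and Arg1, which breaks down arginine, fell by 0.87 on the log2 scale. Acod1, which makes itaconate, measured 49.4, 52.8 and 48.2 CPM with amyloid and 8.58, 6.45 and 24.1 CPM without, a log2 fold change of 1.94 ± 0.38 (adjusted p = 0.021), with untreated library 3 highest of its group. Its call held when that library was left out and was lost without any other 1 of the 6, at adjusted p-values of 0.051 to 0.082. Arg1 reached 0.086 to 0.17 without any 1 amyloid library and 0.095 without untreated library 2. Of 25 Alzheimer risk genes 5 rose, Treml2, Ms4a6d, Sorl1, Abi3 and Abca7, and 0 fell, and the 10-library fit called 2. Of the 5, Treml2 was called whichever library was left out. The others lost their calls without amyloid library 1 or 2 (adjusted p 0.069 to 0.23), Sorl1, Abi3 and Abca7 also without amyloid library 3 (0.091 to 0.25), and Abi3 without untreated library 1 (0.062). Cholesterol synthesis, oxidative phosphorylation, heat shock, ribosomal and mitochondrial lists each had 0 calls in either direction in edgeR's 6-library fit. In the 11-library fit 5 of 24 cholesterol synthesis genes were higher and 2 of 15 heat shock genes lower at an unadjusted p under 0.05, and 0 genes of the other 3 lists. At that threshold 8.24% of all genes were higher and 4.9% lower. Ribosomal protein genes had a median of -0.24, and 13 of 31 were lower in all 3 amyloid libraries than in any untreated one, against 10.9% of all genes.

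Amyloid was then set against tau in APOE3 cells, in a fit of all 17 libraries of the same title series. Amyloid libraries had 453 higher (3.21%) and 583 lower genes (4.13%) than tau libraries, of 14131 tested, 7.33% together. This count rested on single libraries: leaving out tau library 6 left 11 higher and 47 lower genes, and leaving out any amyloid library left 141 to 218 in all. Without tau library 5 there were 192 and without tau library 4 there were 572. Without APOE3S/S untreated library 2 there were 626 higher and 970 lower. Of the 470 genes that rose with amyloid, 5 were above and 99 below their tau level, and of the 105 that fell 30 were above and 2 below. Both comparisons use the same amyloid libraries.

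Inflammatory genes differed between the treatments. Of 35 tested inflammatory and NF-kB genes 25 were lower with amyloid than with tau and 0 higher, with a median difference of -1.06, and of 22 chemokines 11 were lower and 1 higher. Over all genes 4.13% were lower and 3.21% higher. Il1b measured 33.1, 40.9 and 23.4 CPM with amyloid, 188, 297 and 353 CPM with tau and 16.4, 21.3 and 23.4 CPM in untreated cells, and the log2 difference of amyloid minus tau was -3.20 ± 0.42 (adjusted p = 0.0029). Il6, a secreted cytokine, measured 2.52, 4.88 and 8.17 CPM with tau, and the log2 difference was -4.80 ± 0.62 (adjusted p = 0.0029). Every tau library was above every amyloid and untreated library for both, and both calls held whichever amyloid or tau library was left out. Nqo1, an NRF2 target, measured 6.68, 7.17 and 6.24 CPM with amyloid, 29.6, 29.4 and 37.8 CPM with tau and 5.91, 5.63 and 4.94 CPM in untreated cells (log2 difference -2.36 ± 0.39, adjusted p = 0.0059), and 15 of 25 NRF2 genes were lower with amyloid than tau and 0 higher.

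Among 55 interferon-stimulated genes 4 were lower with amyloid than with tau (Oasl1, Usp18, Cxcl10 and Apol9b) and 0 higher. Over all genes 4.13% were lower and 3.21% higher, so this count alone says little of the list. The median log2 difference of the list was -0.87, against 0.00 over all genes. The mean log2 level of the list was 7.80, 7.96 and 7.81 with tau and 7.00, 7.09 and 7.00 with amyloid, without overlap. This fit includes APOE3S/S untreated library 2, at a list level of 7.73 against 5.65 in APOE3S/S untreated library 1. Without that library the fit called 970 lower genes in all, against 583 with it. How many of the 970 belong to this list was not counted. Isg15 measured 101, 109 and 95.4 CPM with amyloid, 258, 314 and 318 CPM with tau and 22.2, 26.0 and 19.2 CPM in untreated cells, a log2 difference from tau of -1.64 ± 0.48 (adjusted p = 0.051). Cxcl10 measured 12.3, 11.8 and 14.9 CPM with amyloid, 61.5, 72.9 and 70.5 CPM with tau and 1.42, 1.56 and 2.83 CPM in untreated cells, a log2 difference from tau of -2.49 ± 0.66 (adjusted p = 0.034, and 0.058 to 0.12 without any 1 of these amyloid or tau libraries). Amyloid libraries lay between tau and untreated libraries for both genes.

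Homeostatic genes ran the other way. Of 22, 7 were higher and 1 was lower with amyloid than with tau, against 3.21% higher and 4.13% lower over all genes. Cx3cr1 measured 116, 102 and 122 CPM with amyloid, 70.9, 35.8 and 46.2 CPM with tau and 50.1, 49.3 and 72.4 CPM in untreated cells, a log2 difference from tau of 1.06 ± 0.21 (adjusted p = 0.011, but 0.050 without amyloid library 3 and 0.073 without tau library 6). The amyloid libraries were the highest of the 9. P2ry12 measured 24.9, 24.5 and 24.6 CPM with amyloid and 25.9, 25.1 and 26.4 CPM with tau, a log2 difference of -0.15 ± 0.19 (adjusted p = 0.68), and Cd36 had 360, 302 and 408 CPM with tau, a log2 difference of amyloid minus tau of -0.02 ± 0.22. For both genes the amyloid and tau libraries were nearer to each other than to the untreated ones.

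**Figure D5:**
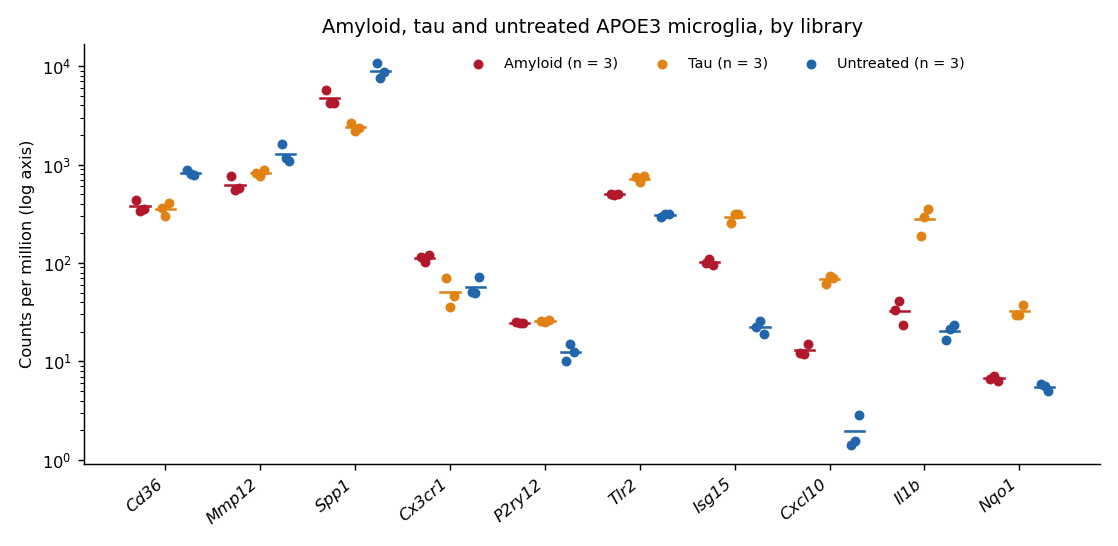
Points give the CPM (log y axis) of 10 genes (x axis) in APOE3 libraries given amyloid (red), given tau (orange) and untreated (blue), 3 each, and lines give group means. Il1b and Nqo1 are high with tau alone, Cx3cr1 is highest with amyloid, and for Isg15 and Cxcl10 amyloid lies between tau and untreated.

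The amyloid response of APOE3 cells was also compared with that of APOE3S/S cells, as the difference of the 2 differences in the 11-library fit. No gene of 13867 passed in edgeR (0.0%), and 514 had an unadjusted p under 0.05 (3.71%). DESeq2 and limma-voom also called 0. Of the 470 genes that rose in APOE3 cells 20 had an unadjusted p under 0.05 for this difference, and of the 105 that fell 7 did. APOE3S/S groups had 3 amyloid and 2 untreated libraries. Without APOE3S/S untreated library 2 edgeR called 0 genes and 916 had an unadjusted p under 0.05, without APOE3S/S untreated library 1 it called 3, and without a low-count filter it called 75. A p that misses the threshold does not show that the genotypes responded alike, and no change above is called particular to APOE3 cells. Isg15 measured 191, 308 and 381 CPM in APOE3S/S amyloid libraries and 27.6 and 246 CPM in APOE3S/S untreated libraries.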

How the data were processed

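The authors deposited 2 tables of whole-number gene counts, not normalised, for 28 libraries. Libraries were made with a QuantSeq 3′ forward kit, per the labels' protocols. GRCm38 (mm10) and DESeq2 1.38.3 are named in the submitters' processing notes; which aligner and counter were used is not given in the sources used here. Of 60976 entries, 6360 without numbers, 25 without a name, 81 repeats and 108 further entries sharing a symbol were left out, and 24 symbols that read as dates were named nowhere. Coordinates came from GENCODE M21.

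Counts were scaled by TMM, filtered by filterByExpr and tested by quasi-likelihood in edgeR 4.0.16, Benjamini-Hochberg adjusted over all genes tested, in R 4.3.3. The main fit took 11 libraries, or 17 for amyloid minus tau, with 1 coefficient per group. The fit of 6 libraries alone, an alternative to it, gave the per-gene values because the main fit called 0 genes. CPM divides the deposited counts by the library total. DESeq2 1.42.0, limma-voom (limma 3.58.1), RLE scaling, filters and removal of libraries were alternatives. The fits were tested on simulated data with the same spread for every gene and group, a setting that these libraries, with unequal spread, do not share.

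Groups and genotypes were taken from the labels. The members and lists were chosen with earlier results of these data known. Named genes are the 12 highest and 12 lowest called changes with a mean of 5 CPM or more, the 3 smallest p-values per list and 32 preset genes; the rule was also applied to the 6-library fit, and other list members are named to account for counts of calls. Lists are described by counts and medians. The result of 1 gene is not reported here.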

Additional observations from a re-analysis of the deposited data

How the results depend on the processing

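For amyloid against untreated APOE3, the count of 0 in 11 libraries was also 0 with RLE scaling, a filter at 10 CPM, limma-voom and without APOE3S/S amyloid library 3, and 0 to 1 when each of the 6 libraries was left out. It was 1008 without a low-count filter, 289 with DESeq2, 575 for the 6 libraries alone and 118 for 17 libraries. Chosen after seeing the data, 11 libraries less APOE3S/S untreated library 2 gave 321, 17 libraries less it 594 and 9 APOE3 libraries 932. In the 6-library fit, the 575 became 570 with RLE scaling, 521 at 10 CPM, 587 with limma-voom, 942 with DESeq2, 1245 without a filter, and 216 to 1001 with 1 library left out; the low counts, 317, 216 and 243, came without amyloid libraries 1, 2 and 3, and the high one without untreated library 3. Amyloid minus tau gave 1036, and 1892 without a filter, 1596 with DESeq2, 58 to 572 with 1 library left out, 1596 less APOE3S/S untreated library 2 and 1836 in 9 APOE3 libraries. The genotype difference gave 75 without a filter and 0 to 3 with 1 library left out.

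Of 149 named genes, 6 changed sign in the 11-library fit, none of them called in the 6-library fit, and the cause was not tested. With 1 library left out, their log2 fold changes ran from -0.30 to 0.035 for Cox4i1, -0.076 to 0.074 for Hmgcs1, -0.27 to 0.59 for Il6, -0.24 to 0.14 for Itgax, -0.52 to 2.72 for Nos2 and -0.75 to 1.31 for Ptgs2. With limma-voom Itgax was 0.013 and Ptgs2 0.30, and at 10 CPM Hmgcs1 was 0.0062. No paired analysis was possible because the compared groups share no title number. At 14.7 to 18.7 M counts a library, genes below 1 CPM rest on few counts, and genes such as Il6 were not tested in the 6-library fit.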
